A study of Mus musculus with 2 samples.

Results

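The nuclei described here were GABAergic nuclei of the mouse preoptic area (POA) that carried transcripts of the transcription factors Lhx6 and Sox6. A nucleus was taken as a member when it held at least 1 unique transcript (UMI) of Lhx6, at least 2 of Sox6 and at least 1 of Gad1 and Gad2 together, and none of the glutamate transporter Slc17a6 or of Lhx8. They numbered 685 of the 20952 nuclei that had 200 to 7500 genes, at most 5% mitochondrially encoded UMIs and at least 2000 UMIs, and those 20952 came from 23800 deposited barcodes. Single-nucleus RNA-seq had been run on 1 library of ultrasound-stimulated mice (US+) and 1 library of sham mice (US-). Both were made from WT mice aged 6 to 9 weeks, and each pooled the POA tissue of 4 mice about 1 h after stimulation or sham treatment. Nuclei were sorted on the neuronal marker NeuN, about 25000 per library. With 1 library per condition the design holds no replicate: ratios between libraries carry intervals for counting error only, no test between conditions exists, and differences between the mice, the dissections and the libraries cannot be told apart from ultrasound.

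Lhx6 is a LIM homeodomain factor switched on downstream of Nkx2-1 in the medial ganglionic eminence (MGE), the embryonic source of many cortical, striatal and pallidal GABAergic neurons. Sox6 and the chromatin organizer Satb1 act after Lhx6 in those lineages, where they shape the final position and the somatostatin or parvalbumin identity of the cells. In the ventral forebrain the same lineage seeds the basal forebrain and the pallidum, and Lhx6 neurons of the zona incerta are known for promoting sleep. Hcrtr2, the second orexin receptor, passes the wake signal of lateral hypothalamic orexin neurons to its target cells.

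The US+ library gave 281 members, 2.83% of its nuclei (exact binomial 95% interval 2.52 to 3.18), and the US- library gave 404, 3.66% (3.32 to 4.03). Among GABAergic nuclei the shares were 4.44% (3.95 to 4.98) in US+ and 4.96% (4.5 to 5.45) in US-, and these intervals overlapped. The rule narrowed stepwise. Lhx6 was seen in 2681 nuclei, Lhx6 and Sox6 in 1305, and 1240 of these carried Gad1 or Gad2. Removing Slc17a6 left 1178 nuclei and removing Lhx8 left 685. The Lhx8 condition thus took out more nuclei than the Gad and Slc17a6 conditions. Members had a median of 9503 UMIs per nucleus (9280 in US+ and 9625 in US-), against 7449 in the 20267 other nuclei. The libraries shared 29 barcodes.

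Levels are given as CPM, the UMIs of a gene summed over the nuclei of a set and scaled to counts per 1e6 UMIs of that set. The members were selected on the UMI counts of Lhx6, Sox6, Gad1, Gad2, Slc17a6 and Lhx8, and these counts were low. Lhx6 was at exactly 1 UMI in 375 of the 685 members and reached 9 at most, while Sox6 had a median of 8 UMIs and a maximum of 66. Nuclei with 1 Sox6 UMI, just outside the rule (59 nuclei), had a Satb1 level of 88.5 CPM, against 146 CPM in the 53 members with 2 Sox6 UMIs. Npy was at 18.8 CPM in those 53 members and 9.42 CPM in the 59 nuclei outside. Beyond the other edge, 963 nuclei met every condition except Lhx6 and had 86.9 CPM of Satb1, against 147 CPM in the 375 members with 1 Lhx6 UMI. Members with 2 or more Lhx6 UMIs had 94.9 CPM of Npy and 158 CPM of Sst. Not every gene followed this order: at the Sox6 edge Sst was at 37.7 CPM in the 53 members and 39.5 CPM in the 59 nuclei outside, and Moxd1 at 18.8 and 33.9 CPM. The 53 members were also shallower (median 7212 UMIs per nucleus) than the 59 nuclei outside (8339). Whether nuclei just outside the rule are of the same kind was not tested.

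The marker genes of the name were then examined across the members. Satb1 stood at 151 CPM in members and 31.2 CPM in other nuclei (ratio 4.85, 95% counting interval 4.54 to 5.16), and Hcrtr2 at 98.9 CPM in members and 32.2 CPM in other nuclei (3.07, 2.84 to 3.31). Lhx6 (159 CPM in members and 17.7 CPM in other nuclei) and Sox6 (1011 and 126 CPM) were set by the rule. On GRCm38, the Satb1 gene spans bases 51736187 to 51833290 of chromosome 17 and Hcrtr2 bases 76225880 to 76323856 of chromosome 9, both on the minus strand. Lhx6 spans bases 36081953 to 36105408 of chromosome 2 and Sox6 bases 115470872 to 116038796 of chromosome 7, also on the minus strand. A Satb1 UMI was seen in 55.3% of members and an Hcrtr2 UMI in 38.2%. After each nucleus was thinned to 5000 UMIs, which kept 616 members, Satb1 was detected in 44.3% of members, 10.2% of other nuclei and 5.64% of striatal-type nuclei. Hcrtr2 was detected in 28.4%, 10.3% and 6.67% of these sets in the same order. The striatal-type nuclei, of similar depth (median 9512 UMIs), serve as a reference. They are a mixed set, which held 591 Slc17a6 and 302 Chat UMIs, so their shares are not a pure background level. Satb1 and Hcrtr2 thus marked a share of the members and not all of them, so the set is called Lhx6+Sox6+ GABAergic nuclei here.

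Against all other nuclei, the members carried more transcripts of a compact set of genes beside the rule genes. Of 11696 genes with at least 50 UMIs expected in members from their level in all nuclei, 110 (0.94%) were at least 2-fold higher in members and 331 (2.83%) at least 2-fold lower, while 30.9% lay above 1. The median gene stood at a ratio of 0.931 (-0.10 on the log2 scale), so a ratio of 1 lies slightly above the typical gene. Because the rule sets this contrast, the values describe the set. Among the highest ratios outside the rule genes were those of Moxd1, a monooxygenase relative (53.1 CPM in members and 5.51 CPM in other nuclei, ratio 9.62), and of the neuropeptide gene Npy (65.4 and 7.43 CPM, 8.81). Nxph2, a neurexin ligand, had 25.0 CPM in members and 3.25 CPM in other nuclei (7.70), and the axon guidance receptor gene Robo3 had 22.4 and 3.53 CPM (6.36). The neuropeptide gene Sst stood at 116 CPM in members and 20.5 CPM in other nuclei (5.64).

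Transcription factors of the ventral forebrain lineages stood on both sides. Of 32 lineage factors counted, 11 were at least 2-fold higher in members and 9 at least 2-fold lower, with a median ratio of 1.01 against 0.931 over all genes. The 11 include Lhx6 and Sox6 and the 9 include Lhx8, which the rule fixed. Npas1, a bHLH factor of pallidal neurons, was at 30.5 CPM in members and 6.30 CPM in other nuclei (4.84), and the homeobox gene Gbx1 at 47.1 and 10.9 CPM (4.32). Maf, which acts in MGE interneuron fate, had a ratio of 3.88. Nkx2-1, the factor upstream of Lhx6, was low (9.39 CPM in members and 6.94 CPM in other nuclei, ratio 1.35, 1.05 to 1.72). On the other side stood Ebf1, a factor of striatal projection neurons (6.26 CPM in members and 78.3 CPM in other nuclei, 0.08), Zic1 (0.18), Meis2 (0.22) and Foxp2 (0.31). A list of pallidal neuron genes stood near the typical gene, with 2 of 11 at least 2-fold higher in members (Npas1 and Gbx1), 2 at least 2-fold lower (Foxp2 and Gfra1) and a median ratio of 0.951. All 6 measured transcription factors of a hypothalamic list were at least 2-fold lower in members, with Zfhx3 at 107.67 CPM against 733 CPM in other nuclei (0.15) and Zfhx4 at 34.9 CPM against 201 CPM (0.17).

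Receptor genes for tachykinins, orexin and acetylcholine were among those higher in members, and receptor genes for prolactin and calcitonin among those lower. Of 23 receptors for arousal transmitters, 3 were at least 2-fold higher and 3 at least 2-fold lower. The 3 higher ones were Hcrtr2, the muscarinic receptor gene Chrm3 (821 CPM in members and 333 CPM in other nuclei, 2.47) and the adrenergic receptor gene Adra1b (2.25). Of 25 peptide and hormone receptors, 2 were at least 2-fold higher and 5 at least 2-fold lower. The substance P receptor gene Tacr1 had 94.4 CPM in members and 34.8 CPM in other nuclei (2.71), and the neurokinin B receptor gene Tacr3 a ratio of 2.32. Among those that were lower, the prolactin receptor gene Prlr was at 41.3 CPM in members and 131.5 CPM in other nuclei (0.31), and the calcitonin receptor gene Calcr had a ratio of 0.28. Esr1, the estrogen receptor gene that the study used as a torpor marker, was at 42.6 CPM in members and 84.6 CPM in other nuclei (0.50).

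Channel, synaptic and interneuron genes are set beside the shares over all genes, 0.94% at least 2-fold higher in members and 2.83% at least 2-fold lower. Of 41 potassium channel genes, 1 was at least 2-fold higher in members and 3 at least 2-fold lower. The higher one was Kcnmb4, which codes for an auxiliary subunit of the BK channel, at 65.4 CPM in members and 22.9 CPM in other nuclei (2.85), and the lower ones were Kcnh8 (0.28), Kcnk9 (0.40) and Kcnh5 (0.48). Kcnc2, which codes for a fast Kv3 channel typical of fast-spiking cells, had 735 CPM in members and 499 CPM in other nuclei (1.47). None of 25 sodium, calcium and HCN channel genes was 2-fold higher, and Cacna2d1 was 2-fold lower (122 CPM in members and 455 CPM in other nuclei, 0.27). Of 16 GABA-A receptor genes, 3 were at least 2-fold lower and none higher. Of 21 genes of MGE-derived interneurons, 6 were at least 2-fold higher and none 2-fold lower, with a median ratio of 1.43. Of 6 genes of interneurons from the caudal ganglionic eminence, 1 was at least 2-fold higher and 2 at least 2-fold lower, with a median ratio of 0.879. The higher one was Adarb2, at 2337 CPM in members and 1124 CPM in other nuclei (2.08), and the lower ones were Lamp5 (0.31) and Nr2f2 (0.41).

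Of the genes on which the study centred, Adcyap1 and Qrfp were sparse here, and Trpm2 was near its level in other nuclei. Trpm2, the channel gene the study followed, had 25.4 CPM in members and 23.8 CPM in other nuclei (1.07, 0.92 to 1.23). Of the torpor markers, Adcyap1 gave 10 UMIs over all 685 members. Qrfp gave 0, which allows up to 3 UMIs in 7671558. Marker lists of other cell types ranged from near the typical gene to far below it. Microglia markers had a median ratio of 1.06 over 3 genes and summed to 172 CPM in members and 157 CPM in other nuclei, and oligodendrocyte (0.881, 3 genes) and vascular markers (0.890, 2 genes) also had no gene 2-fold apart. Astrocyte markers had a median ratio of 0.737 over 5 genes, 1 of them at least 2-fold lower. The striatal projection neuron markers had a median ratio of 0.470 over 7 genes, 5 of them at least 2-fold lower in members. Chat, the defining gene of cholinergic neurons, gave 1 UMI in all members (ratio 0.01).

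Nuclei of 4 other kinds were set beside the members to place them. The first set held 143 GABAergic nuclei with at least 2 Lhx6 UMIs and neither Sox6 nor Lhx8. Satb1 was at 151 CPM in members and 29.0 CPM in these nuclei (5.21, 3.86 to 7.21), and Hcrtr2 at 98.9 and 28.3 CPM (3.49). Npy differed by 12.4-fold, Sst by 8.78-fold and Nos1 by 8.18-fold, all higher in members. The nuclei without Sox6 were the ones with more of the hormone receptor genes: Prlr was at 41.3 CPM in members and 194 CPM in the nuclei without Sox6 (0.21), and Esr1 at 42.6 and 114 CPM (0.37, 0.31 to 0.45). Over 5168 genes, 52 were at least 2-fold higher in members and 34 at least 2-fold lower. Nuclei with Lhx6 but no Sox6 UMI thus held less Satb1, Hcrtr2 and peptide transcript and more Prlr and Esr1 than the members, beyond counting error.

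The second set was 978 GABAergic nuclei with at least 2 Lhx8 UMIs and no UMI of the cholinergic genes Chat and Slc5a7. No limit was set on its Sox6 (363 CPM) or Lhx6 (69.2 CPM), so this set can hold nuclei that met every member condition except that on Lhx8. It was closer to the members in the marker genes, with Satb1 at 151 CPM in members and 85.7 CPM in Lhx8 nuclei (1.76, 1.62 to 1.92) and Hcrtr2 at 98.9 and 71.2 CPM (1.39, 1.26 to 1.53). It was not closer in the peptide genes: Npy was at 65.4 CPM in members and 5.37 CPM in Lhx8 nuclei (12.2), Moxd1 at 53.1 and 4.58 CPM (11.6), Sst differed by 7.55-fold and Nos1 by 6.69-fold. The epidermal growth factor receptor gene Egfr was 4.82-fold higher in members. Gbx1 was near level, at 47.1 CPM in members and 41.9 CPM in Lhx8 nuclei (1.12, 0.98 to 1.28). Kcnc2 was lower in members, at 735 CPM against 875 CPM (0.84, 0.81 to 0.87). On the low side lay Zfhx3 at 107.67 CPM in members and 567.5 CPM in Lhx8 nuclei (0.19). There, 62 of 11392 genes were at least 2-fold higher in members and 69 at least 2-fold lower. The third set, 3525 striatal-type nuclei, differed from members in 413 genes at least 2-fold higher in members and 590 at least 2-fold lower, of 11296. The fourth set, 594 glutamatergic nuclei, gave 230 higher and 253 lower of 10707.

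**Figure D1:**
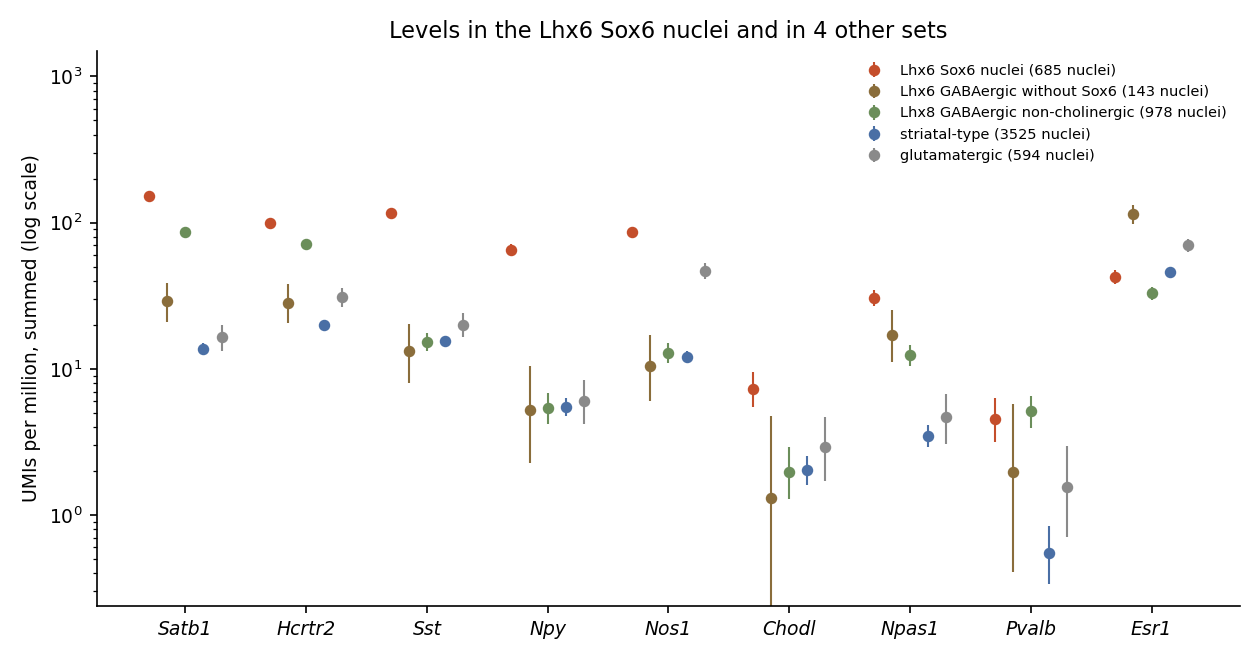
Summed levels in CPM (log axis) of 9 genes in the Lhx6+Sox6+ nuclei and in 4 other sets of nuclei, whose sizes are in the legend; bars are exact Poisson 95% intervals. Npy lies at 65.4 in the members and between 5.27 and 6.04 in the other sets, while Esr1 lies at 42.6 in the members and 114 in the Lhx6 nuclei without Sox6.

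Within the members, the MGE interneuron genes were not spread evenly. Nos1, which codes for neuronal nitric oxide synthase, stood at 86.2 CPM in members and 25.8 CPM in other nuclei (3.34) but was detected in few members. In the nuclei thinned to 5000 UMIs, Sst was detected in 22.2% of members and 6.86% of striatal-type nuclei, Npy in 10.6% and 2.67%, and Nos1 in 10.6% and 3.93%. Unthinned, the members' shares were 31.1% for Sst, 14.9% for Npy and 14.7% for Nos1. Npas1 was found in 9.09% of thinned members and 1.42% of thinned striatal-type nuclei, Tacr1 in 25.2% and 5.38%, and Moxd1 in 17.0% and 0.805%. Pvalb, the parvalbumin gene of fast-spiking interneurons, was found in only 2.6% of members and 0.387% of striatal-type nuclei. Striatal neurons themselves express Calb1, Tac1 and Penk, so these genes were set against the Lhx8 nuclei, also thinned. Calb1 was found in 11.9% of members (9.41 to 14.7) and 4.70% of Lhx8 nuclei (3.43 to 6.25). The intervals overlapped for Tac1 (8.6% and 6.62%) and Penk (12.8% and 9.71%). Other sets held more Calb1 than members: its level was 26.2 CPM in members and 50.7 CPM in Lhx6 nuclei without Sox6 (0.52, 0.40 to 0.68). The Calb1 ratio of members was 0.63 against striatal-type and 0.51 against glutamatergic nuclei.

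Npy, Sst and Nos1 were found in the same nuclei. Of the 616 thinned members, 41 held both Npy and Nos1, where 6.86 would hold both if the genes were spread independently (ratio 5.98). Sst and Npy met in 51 nuclei, where independence gives 14.5, and Sst and Nos1 in 48, also against 14.5. Chodl, which codes for chondrolectin and marks long-range Sst, Npy and Nos1 neurons of the cortex, met Sst in 18 nuclei, against 5.12 under independence. Hcrtr2 behaved the opposite way. It met Nos1 in 4 nuclei, against 18.5 under independence, Npy in 7, against 18.5, and Chodl in 1, against 6.53. Npas1 and Npy met in 1 nucleus, against 5.91.

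**Figure D2:**
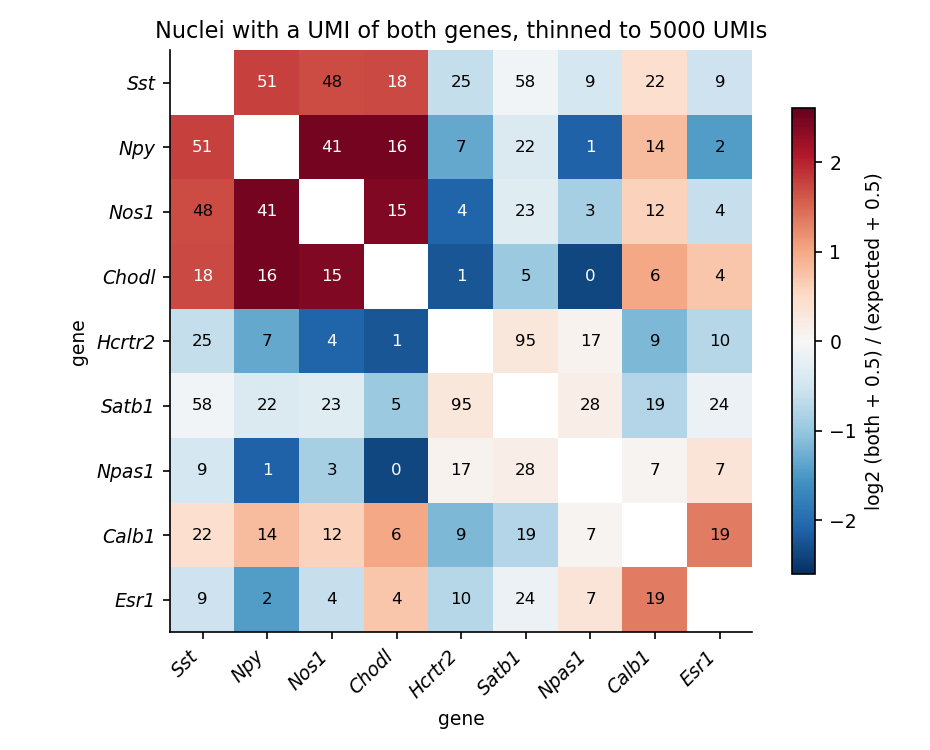
Nuclei holding a UMI of both genes of a pair (printed number) among the 616 members thinned to 5000 UMIs; colour gives the log2 ratio of that number to the one expected under independence, each with 0.5 added. Pairs among Npy, Sst, Nos1 and Chodl are red, with 41 nuclei for Npy and Nos1, and Hcrtr2 is blue with Nos1, Npy and Chodl.

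Counted over all 3 genes, 58 members held Npy, Sst and Nos1 together and 42 more held a pair of them, 14.6% of members in all (16.4% in US+ and 13.4% in US-). Among the 20267 other nuclei, 47 held all 3 and 2.95% held at least 2. After thinning, the share with at least 2 was 10.7% of members (8.38 to 13.4), 1.48% of other nuclei and 0.870% of striatal-type nuclei. It was 1.39% in Lhx8 nuclei and 1.53% in the Lhx6 nuclei without Sox6 (0.185 to 5.41, 2 of 131 nuclei). The members' share lay above each of these sets by more than the counting intervals.

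Graph-based clustering of the members, run without the early genes and without the mitochondrially encoded genes, split them into 12 clusters. The genes that lead a cluster were used to make it, so their levels describe it. Clusters are called by number and leading genes, and their shares in the libraries are not compared, because some of those genes differ between the libraries. Cluster 2 (82 nuclei, 34 US+ and 48 US-) held the peptide nuclei: Nos1 was at 870 CPM in the cluster and 17.7 CPM in the remaining members, Npy at 662 and 13.3 CPM, and Sst at 969 and 41.1 CPM. It also had the most Tacr1 (511 CPM), Chodl (63.3 CPM), Lhx6 (331 CPM) and Sox6 (2324 CPM), with only 13.0 CPM of Hcrtr2. Cluster 0 (40 nuclei, 14 US+ and 26 US-) was led by Egfr (559 CPM, and 3.83 CPM in the remaining members), Zeb2 (713 CPM) and Maf (483 CPM), both of which code for factors of MGE interneuron development. It had 1068 CPM of Sox5, 450 CPM of Gad1, 319 CPM of Moxd1 and 184 CPM of Kit, but 11.2 CPM of Satb1 and 2.79 CPM of Hcrtr2. Astrocyte markers summed to 443 CPM in its US+ nuclei and 547 CPM in its US- nuclei. That sum was 113 CPM in all members and 207 CPM in other nuclei.

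Satb1 and Hcrtr2 were highest in other clusters. Cluster 2 still had 94.1 CPM of Satb1, against 156 CPM in the remaining members, with a UMI in 40.2% of its nuclei. Satb1 was highest in cluster 5 (392 CPM, 25 nuclei), which was led by Pcsk5 and also had 222 CPM of Npas1 and 151 CPM of the natriuretic peptide receptor gene Npr3. It was at 362 CPM in cluster 9 (34 nuclei, led by Inpp5d), 311 CPM in cluster 8 (43 nuclei, led by the collagen gene Col5a2) and 0 CPM in cluster 10 (23 nuclei), which was led by the nuclear receptor gene Rorb (1079 CPM). Hcrtr2 peaked in cluster 6 (309.9 CPM, 74 nuclei, led by Plch1 and the metabotropic glutamate receptor genes Grm8 and Grm3), cluster 8 (272 CPM) and cluster 4 (135 CPM, 101 nuclei, led by Itga8). It was at 0 CPM in cluster 3 (32 nuclei), which carried Esr1 at 524 CPM against 25.4 CPM in the remaining members, together with 332 CPM of Prlr, 207 CPM of Calb1 and 106 CPM of Gal. Cluster 7, the largest (122 nuclei), was led by the homeobox gene Meis1 (239 CPM, and 28.8 CPM in the remaining members). Cluster 11 (28 nuclei) was led by Gpc5 and Etv1 and had the most Pvalb (48.0 CPM). Cluster 1 (81 nuclei, 44 US+ and 37 US-) was led by Foxp2 (418 CPM) and Meis2 (376 CPM). Its nuclei were deep, with a median of 16725 UMIs, and 74.1% of them lay in the highest 9% of doublet scores of their library, against 13.1% of all members and 1.22% of cluster 2.

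**Figure D3:**
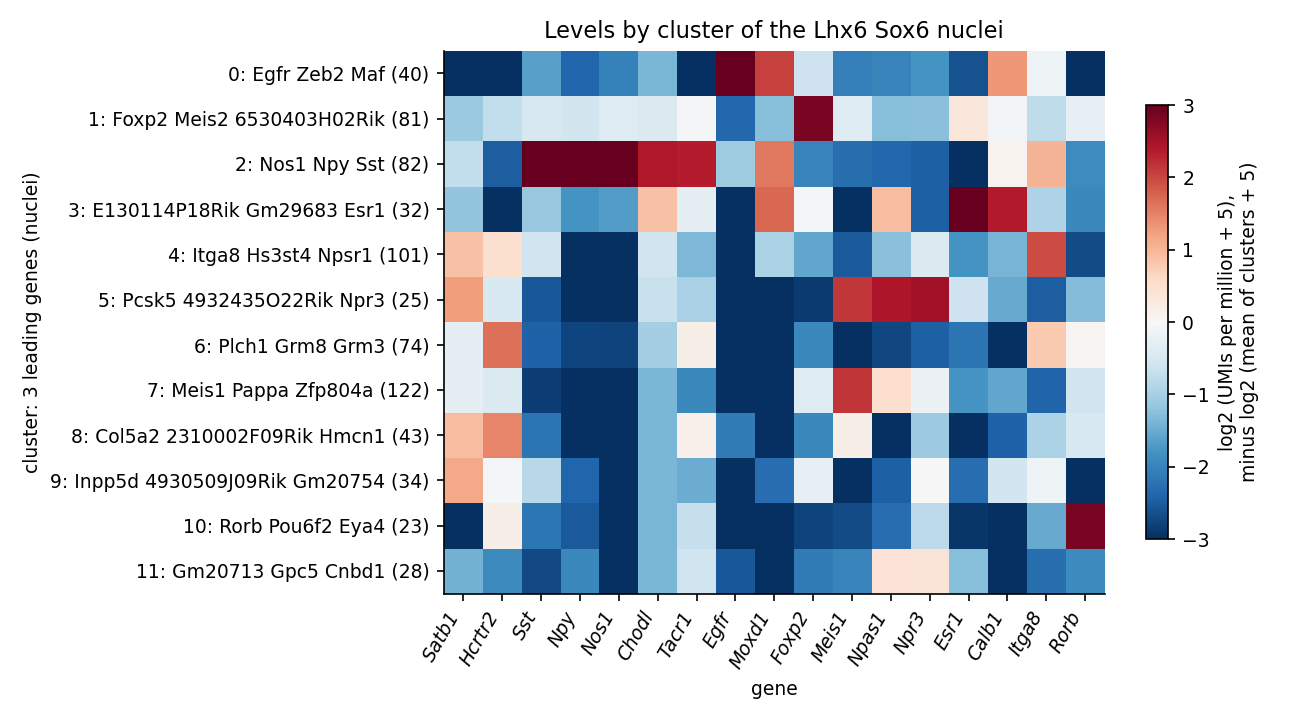
Levels of 17 genes (columns) in the 12 clusters of members (rows, with 3 leading genes and the number of nuclei); colour gives the log2 of CPM plus 5, relative to the mean of the clusters plus 5. Nos1, Npy and Sst are highest in cluster 2, Egfr in cluster 0 and Esr1 in cluster 3, and cluster 10 has no Satb1.

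Between the conditions, the members of the US+ library differed most from those of the US- library in immediate-early genes (IEGs), which neurons switch on within minutes of activity. Of 11413 genes with at least 50 UMIs in members, 379 (3.32%) were at least 1.5-fold higher in US+ members and 372 (3.26%) at least 1.5-fold lower, and 49.2% of genes lay above 1. In the other nuclei the same genes gave 143 (1.25%) higher and 162 (1.42%) lower, from many more UMIs. The mix of other nuclei differed between the libraries: 1002 of 9631 were striatal-type in US+ and 2523 of 10636 in US-. Ratios given for other nuclei were not adjusted for this mix. The median ratio over all genes in members was 0.997 (-0.00 on the log2 scale). Of 15 rapid IEGs measured, 10 were at least 1.5-fold higher in US+ members and none 1.5-fold lower, and 14 lay above 1, with a median ratio of 2.25. In the other nuclei the median ratio of the same list was 1.87. All 11 delayed activity genes lay above 1, 5 of them at least 1.5-fold higher, with a median of 1.35.

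Fos, which codes for a subunit of the AP-1 factor, gave 79 UMIs in the 281 US+ members (25.4 CPM) and 14 UMIs in the 404 US- members (3.07 CPM), a ratio of 8.26 (4.64 to 15.8), against 3.92 in other nuclei. Fosb gave 69 UMIs in US+ members and 4 in US- members (25.2, 9.42 to 95.2), against 19.6 in other nuclei. Egr1, a zinc finger factor, gave 84 and 25 UMIs (4.92), against 1.95 in other nuclei. The nuclear receptor gene Nr4a1 gave 81 UMIs in US+ members and 66 in US- members (1.80, 1.28 to 2.52), and the phosphatase gene Dusp1 gave 20 and 15 (1.95). Npas4, a neuronal factor induced by calcium entry, gave 101 and 46 UMIs (3.21), against 5.69 in other nuclei, and Arc gave 27 and 5 (7.90). Fos, Fosb and Egr1 were thus clearly apart between the libraries and Nr4a1 less so, while the 20 and 15 UMIs of Dusp1 are too few to tell.

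The upstream sequences of Fos and Fosb, the genes with the highest ratios among these, are shown to give the regulatory sequence beside the counts. The 250 bases before each start are given 5′ to 3′ on the strand of the gene, from RefSeq on GRCm38.p6. Capitals mark TGACG, the core of the cAMP response element bound by CREB, whose reverse complement CGTCA was searched as well.
Fos, chr12:85473640-85473889 (plus strand): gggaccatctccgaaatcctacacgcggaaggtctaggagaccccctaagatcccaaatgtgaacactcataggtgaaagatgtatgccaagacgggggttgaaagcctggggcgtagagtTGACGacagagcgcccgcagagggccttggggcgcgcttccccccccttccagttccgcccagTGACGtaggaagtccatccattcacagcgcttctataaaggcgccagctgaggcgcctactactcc
Fosb, chr7:19310046-19310295 (minus strand): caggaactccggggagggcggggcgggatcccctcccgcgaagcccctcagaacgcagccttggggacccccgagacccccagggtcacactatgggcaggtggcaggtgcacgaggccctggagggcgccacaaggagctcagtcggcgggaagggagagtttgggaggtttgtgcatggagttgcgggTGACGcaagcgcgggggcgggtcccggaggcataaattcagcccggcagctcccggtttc
The Fos window held the core 129 and 66 bases before the start, and the Fosb window held it 60 bases before. Of 32851 promoter windows of the same length, 17.8% held TGACG or CGTCA, and 1.55% held the full element TGACGTCA, which neither window had. These matches describe the sequence only.

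The sum of 5 IEGs (Fos, Fosb, Nr4a1, Egr1 and Dusp1) was 333 UMIs or 107 CPM in US+ members and 124 UMIs or 27.2 CPM in US- members, a ratio of 3.93 (3.19 to 4.87). In all other nuclei it was 65.4 CPM in US+ and 25.7 CPM in US- (2.54, 2.42 to 2.67). The sets with Lhx6 or Lhx8 beside the members gave lower ratios: 40.9 CPM in US+ and 18.6 CPM in US- (2.20) for Lhx6 nuclei without Sox6, and 39.9 CPM in US+ and 22.0 CPM in US- (1.82) for Lhx8 nuclei. Striatal-type nuclei gave a higher one, 164 CPM in US+ and 29.0 CPM in US- (5.65), and glutamatergic nuclei none, 26.7 CPM in US+ and 26.8 CPM in US- (0.999). In US- all of these sets lay between 18.6 and 29.0 CPM. At least 1 of these UMIs was found in 36.3% of US+ members (102 of 281) and 21.0% of US- members (85 of 404). After thinning, the shares were 23.0% in US+ members (17.8 to 28.7) and 11.3% in US- members (8.26 to 14.95). The UMIs were concentrated, since the 10 highest nuclei held 40.5% of the US+ members' sum and 27.4% of the US- members' sum.

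Among the clusters, which were made without these genes, the sum lay mostly in cluster 2, cluster 0 and cluster 1. The Nos1, Npy and Sst nuclei of cluster 2 had 472 CPM in US+ and 38.2 CPM in US- (12.3, 7.07 to 23.3). Fos gave 35 UMIs in its 34 US+ nuclei and 2 in its 48 US- nuclei, Egr1 gave 37 and 8, Fosb 23 and 2, and Nr4a1 17 and 1. A UMI of the sum was present in 20 of the 34 US+ nuclei (58.8%) and 6 of the 48 US- nuclei (12.5%). Of these, 10 in US+ and 1 in US- held 5 or more UMIs, with a maximum of 14 and 5. After thinning, the shares with at least 1 UMI were 61.5% in US+ (40.6 to 79.8) and 12.2% in US- (4.08 to 26.2). Cluster 0, with Egfr, Zeb2 and Maf, had 363 CPM in US+ and 24.5 CPM in US- (14.8, 6.26 to 42.7), from 41 and 6 UMIs. Fos gave 17 UMIs there in US+ and 0 in US-. Cluster 1, the deep cluster with high doublet scores, had 128 CPM in US+ and 21.5 CPM in US- (5.96, 3.46 to 11.0), with 30 UMIs of Fosb in US+ and 0 in US-.

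**Figure D4:**
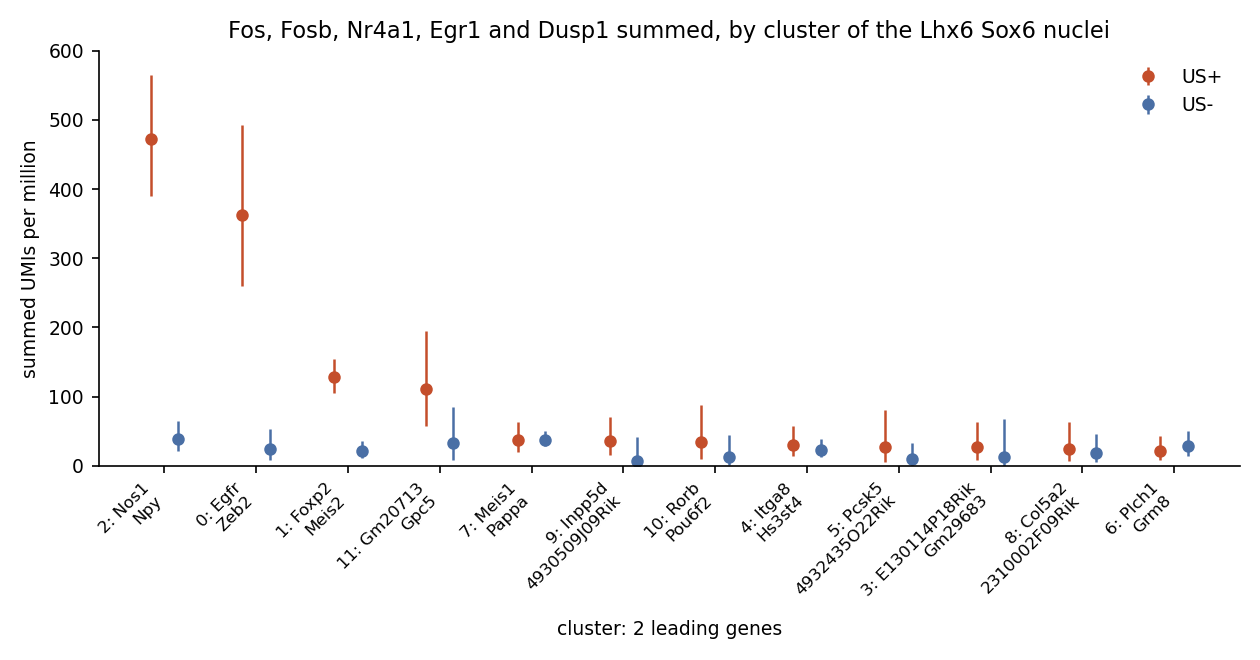
Sum of Fos, Fosb, Nr4a1, Egr1 and Dusp1 in CPM (linear axis) in US+ and US- nuclei of each cluster of members, ordered by the US+ value; bars are exact Poisson 95% intervals. Cluster 2 lies at 472 in US+ and 38.2 in US-, cluster 0 at 363 and 24.5, and cluster 7 at 37.5 and 37.9.

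In the other 9 clusters the sum was 20.8 to 111 CPM in US+ and 7.46 to 37.9 CPM in US-. Cluster 7, the Meis1 cluster, had 37.5 CPM in US+ and 37.9 CPM in US- (0.989, 0.50 to 1.82), and cluster 6, the cluster with the most Hcrtr2, 20.8 CPM in US+ and 28.5 CPM in US- (0.730). The other 7 had ratios above 1, between 1.34 in cluster 4 and 4.77 in cluster 9 (8 UMIs in US+ and 1 in US-), and of these only the interval of cluster 11 excluded 1 (3.37, 1.02 to 14.3, 12 UMIs in US+ and 4 in US-). Outside clusters 2, 0 and 1 the members gave 34.6 CPM in US+ and 27.4 CPM in US- (1.26, 0.90 to 1.76). Those 3 clusters were picked after their values were seen, for their US+ sum, which lowers the remainder by construction. Without cluster 2 alone the ratio was 2.86 (2.26 to 3.63). In the remainder, Fos gave 3 UMIs in US+ and 12 in US-, while Fosb gave 8 and 1 and Egr1 18 and 9.

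Members were also divided by their UMIs of Npy, Sst and Nos1. These genes lead cluster 2, so the division shares nuclei with that cluster and is not independent of it. Members with at least 2 of Npy, Sst and Nos1 (46 US+ and 54 US- nuclei) had 313 CPM in US+ and 38.1 CPM in US- (8.21, 5.16 to 13.8), and members with 0 or 1 of them 62.5 CPM in US+ and 25.8 CPM in US- (2.42, 1.88 to 3.13). Other nuclei with at least 2 of these genes had 63.2 CPM in US+ and 23.9 CPM in US- (2.65, 2.02 to 3.49), close to the 2.54 of all other nuclei. By single genes, members with an Npy UMI had 372 CPM in US+ and 37.2 CPM in US- (10.0), and members without one 64.1 CPM in US+ and 25.6 CPM in US- (2.50). Members with an Hcrtr2 UMI had 34.0 CPM in US+ and 23.5 CPM in US- (1.45, 0.948 to 2.21), against 167 CPM in US+ and 30.1 CPM in US- (5.55) in members without one. For Satb1 the ratio was 2.45 in members with a UMI and 6.49 in members without. These divisions were chosen after the values were seen, and no test of their differences exists with 1 library per condition.

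Some counts of other cells moved with the condition. In members, oligodendrocyte markers summed to 106 CPM in US+ and 60.1 CPM in US- (1.77, and 1.58 in other nuclei). Oligodendrocyte precursor markers gave 13 UMIs in US+ members and 4 in US- members (4.76, 1.47 to 20.02, and 1.91 in other nuclei), and mitochondrially encoded genes summed to 601 CPM in US+ and 399 CPM in US- (1.51). Oxt, a gene of magnocellular neurons, was at 37.2 CPM in US+ members and 17.1 CPM in US- members (2.18, and 1.90 in other nuclei). Markers of striatal-type nuclei, the set with the highest IEG ratio, were level at 794 CPM in US+ members and 806 CPM in US- members (0.985). The same sum was lower in US+ than in US- in other nuclei (0.698, 0.692 to 0.705) and in Lhx8 nuclei (0.858, 0.821 to 0.896). In cluster 2 the striatal sum was 1396 CPM in US+ and 989 CPM in US-, in cluster 0 it was 1488 CPM in US+ and 1890 CPM in US-, and in cluster 1 it was 1108 CPM in US+ and 1298 CPM in US-. Without the nuclei in the highest 9% of doublet scores, the IEG ratio of the members was 3.91. The part of free RNA in the IEG sums was not tested.

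Beyond the IEGs, single genes also stood apart between the libraries. The transcript 1700016P03Rik was at 53.9 CPM in US+ members and 12.5 CPM in US- members (4.31, and 2.03 in other nuclei), and Gm29683, a leading gene of cluster 3, at 34.4 and 8.56 CPM (4.01, and 2.42 in other nuclei). Esr1 was at 76.4 CPM in US+ members and 19.5 CPM in US- members (3.91, 3.05 to 5.05), against 1.53 in other nuclei. Gal, the galanin gene, was at 25.4 and 5.49 CPM (4.62, and 2.26 in other nuclei), Prlr at 71.3 and 20.9 CPM (3.42, and 1.58 in other nuclei) and the zinc transporter relative Tmem163 at 31.1 and 8.56 CPM (3.64, and 1.37 in other nuclei). Meis1 was lower in US+ members, at 28.9 CPM against 106.65 CPM in US- members (0.27, 0.21 to 0.34), and had a ratio of 0.57 in other nuclei. Pappa (19.6 CPM in US+ and 45.2 CPM in US-, 0.43), Parm1 (46.9 and 95.5 CPM, 0.49) and Npas1 (19.9 and 37.7 CPM, 0.53) were also lower in US+ members. Pappa was not lower throughout: its ratio was 3.27 when the rule was applied after thinning to 2000 UMIs, and by cluster it was 0.405 (0.234 to 0.661) in cluster 7 and 2.81 (0.996 to 9.75) in cluster 1, with 11 UMIs in US+ and 0 in US- in cluster 5. The rule genes were near level, with Sox6 at a ratio of 1.00 and Lhx6 at 1.04, as were Sst and Npy, both at 0.91. Satb1 was at 131 CPM in US+ members and 165 CPM in US- members (0.79), and Hcrtr2 at 106 and 94.1 CPM (1.13).

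**Figure D5:**
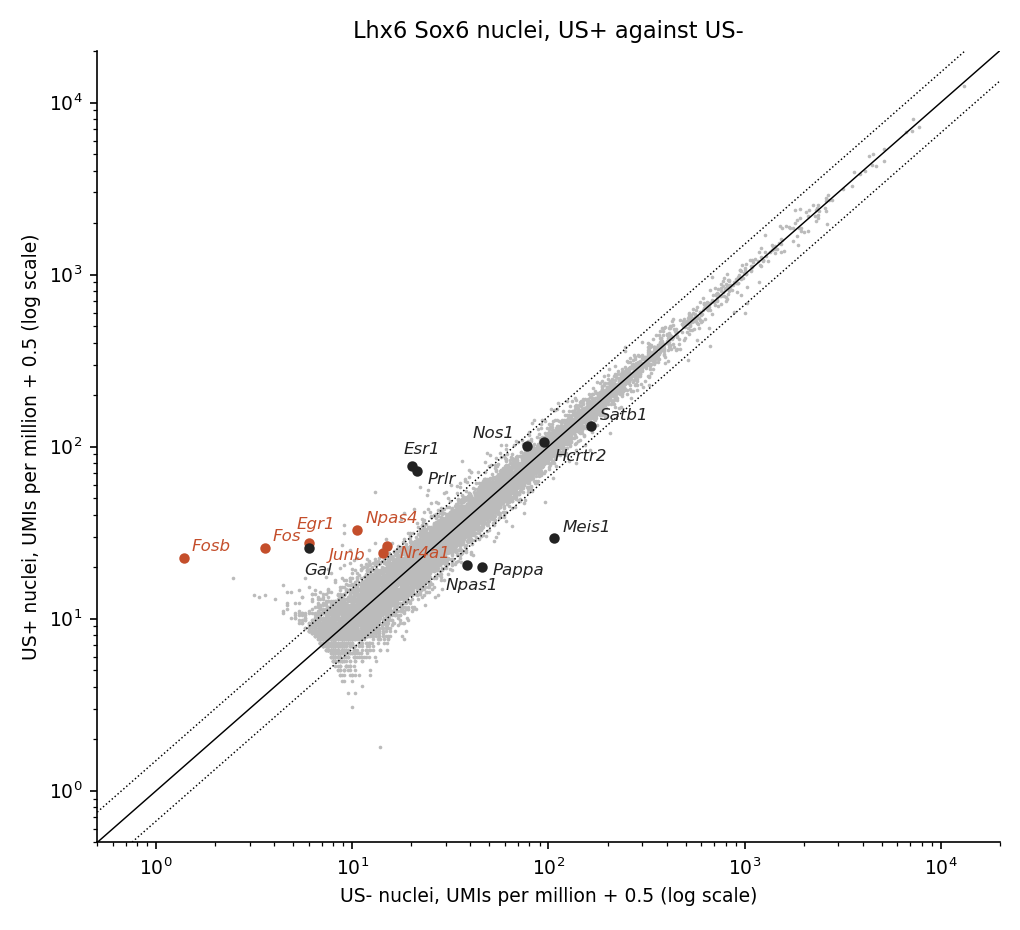
CPM plus 0.5 in US+ members (vertical) against US- members (horizontal), both on log axes, for the 11413 genes with at least 50 UMIs in members; the solid line marks equal levels and the dotted lines 1.5-fold differences. Fosb (22.2 in US+ and 0.878 in US-) and Fos lie far above the lines, and Meis1 (28.9 and 106.65) lies below.

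Several of these ratios changed with the weight given to the clusters. When every cluster was given its pooled share in both libraries, the ratio of Gm29683 was 1.60, of Esr1 2.12, of Prlr 2.36, of Meis1 0.448, of Parm1 0.670 and of Npas1 0.650. Within the Esr1 cluster (21 US+ and 11 US- nuclei), Esr1 had 548 CPM in US+ nuclei and 471 CPM in US- nuclei (1.16, 0.80 to 1.73). Its ratio was higher within cluster 7 (13.4, 4.85 to 46.0, 19 UMIs in US+ and 5 in US-) and cluster 1 (2.45, 1.61 to 3.85). In cluster 5 it was 3.98 (1.07 to 18.1, 8 and 4 UMIs), and in the remaining clusters the intervals included 1. Within the Meis1 cluster (29 US+ and 93 US- nuclei), Meis1 had 126 CPM in US+ nuclei and 271 CPM in US- nuclei (0.47, 0.34 to 0.63). The IEGs moved little with this weighting, with Fos at 8.86, Fosb at 26.3 and Egr1 at 4.75. 1700016P03Rik (4.06), Gal (3.86) and Tmem163 (3.13) also stayed high.

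Lists other than the IEGs differed in how many genes stood apart between the libraries, beside 3.32% of all genes at least 1.5-fold higher in US+ members and 3.26% at least 1.5-fold lower. None of 13 heat shock and cold-inducible genes and none of 25 sodium, calcium and HCN channel genes was 1.5-fold apart. Of 43 potassium channel genes, 4 were at least 1.5-fold higher in US+ members and 3 at least 1.5-fold lower. Of 14 neuropeptide genes, 6 were at least 1.5-fold higher and 1 lower. Of 5 torpor and thermoregulatory markers, 3 were at least 1.5-fold higher (Esr1, Gal and Nts), as were both measured hypothalamic factors, Zfhx4 (2.20) and Zfhx3 (1.71). Of 11 pallidal neuron genes, 2 were at least 1.5-fold higher and 3 lower, and of 24 peptide and hormone receptors 4 were higher and 2 lower. Among 7 glucocorticoid-induced genes, 2 were at least 1.5-fold higher, with a median of 1.27 in members and 1.59 in other nuclei. Zbtb16, one of them, was at 71.0 CPM in US+ members and 39.9 CPM in US- members (1.78), against a ratio of 4.34 in other nuclei. Of 13 TRP and PIEZO channel genes, 1 was at least 1.5-fold higher. Trpm2 itself had a ratio of 0.89 (0.66 to 1.2) in members, which at this depth covers both a lower and a higher level.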

How the data were processed

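The deposited files held UMI counts per gene and nucleus. The authors obtained these counts from the reads by running Cell Ranger 6.1.1 against mm10. Per the study's methods the data had been normalized to the least saturated library. The median UMIs per deposited barcode, 6498 in US+ and 7353 in US-, equal those the study gives after this step. The members and the gene lists were chosen with earlier results of these data known. Counts were summed over the nuclei of a set and divided by its total (CPM). Ratios carry exact conditional binomial 95% intervals, shares Clopper-Pearson intervals and levels Poisson intervals, all of which cover counting error only. Counting interval below means the first of these. Genes with at least 50 UMIs expected in members (against other nuclei) or seen in members (between libraries) were compared, and differences of 2-fold and 1.5-fold were counted. A pseudocount of 0.5 CPM entered list medians only.

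The US+ library held 95029281 UMIs in 12075 barcodes and the US- library 101948623 in 11725. GABAergic nuclei were those with Gad1 or Gad2 and no Slc17a6. Striatal-type nuclei had at least 3 of 7 striatal markers and no Lhx6. Glutamatergic nuclei had at least 2 UMIs of Slc17a6 and no Gad1, Gad2 or Lhx6. Scrublet in scanpy 1.11.5 called 3 of 9912 US+ nuclei and 0 of 11040 US- nuclei as doublets, which is too few for the call to have worked, so no nucleus was removed and the highest 9% of scores were left out as an alternative. Members were clustered (Leiden, igraph 0.11.9) on 1977 variable genes, 20 principal components and 15 neighbours at resolution 0.8. Named genes were the rule and marker genes, the subset genes, 12 genes of highest and 8 of lowest ratio against other nuclei and 8 at each end between libraries (100 UMIs or more), 2 at each end of every list, the summed IEGs, Trpm2, Adcyap1, Qrfp and Esr1, and leading genes of clusters. Genes of the lists outside this rule, such as Maf, Arc and Nkx2-1, were named for their known roles after their values were seen. Scripts used Python 3.11.15, numpy 2.4.6 and scipy 1.17.1, with TMM factors from edgeR 4.0.16, and ratios were tested on simulated data. Alternatives covered the rule's thresholds, limits on nuclei, scaling, the filter on low counts, the pseudocount, the background and the weight of clusters.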

Additional observations from a re-analysis of the deposited data

Results flagged for a closer look

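For 10 of the named genes, the US+ over US- ratio lay on opposite sides of 1 in members and in other nuclei, with counting intervals that excluded 1 in both. Each condition is 1 library, so the differences between the 2 sets of nuclei were not tested. Striatal-type nuclei were 1002 of 9631 other nuclei in US+ and 2523 of 10636 in US-. The ratios of other nuclei were not adjusted for this mix, and its part in them was not tested. Lower in US+ members and higher in US+ other nuclei were Phb2, the mitochondrial prohibitin gene (0.426 in members and 1.09 in other nuclei), Pappa (0.433 and 1.84), Npas3 (0.622 and 1.12), the channel gene Trpc4 (0.710 and 1.17) and Cnr1, the cannabinoid receptor gene (0.823 and 1.29). Higher in US+ members and lower in US+ other nuclei were the GABA-A receptor gene Gabrg3 (1.24 in members and 0.922 in other nuclei), the AMPA receptor gene Gria1 (1.22 and 0.889), Nrg1 (1.19 and 0.873), Nlgn1 (1.13 and 0.95) and the calcium channel subunit gene Cacna2d3 (1.11 and 0.558). With each cluster of members at its pooled share, Phb2 was at 0.417, Pappa at 0.609 and Npas3 at 0.801. When the rule was applied after thinning to 2000 UMIs, the ratios of Phb2 (1.38) and Pappa (3.27) in members lay above 1, on the same side as in other nuclei.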

How the results depend on the processing

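No paired analysis was possible because each condition is 1 library. Applying the rule after every nucleus was thinned to 2000 UMIs changed most values: members were 0.42% of US+ and 0.62% of US- nuclei, genes 2-fold higher in members numbered 34 and 2-fold lower 108, genes 1.5-fold higher in US+ 176 and lower 244, and the IEG ratio was 6.79 against 3.93 as reported. Under it the US+ over US- ratio turned round for Phb2 (1.38), Pappa (3.27), Kcnh8 (0.861), Gabrg1 (0.765), Vcan (0.957), Cntnap5c (1.07), Klf9 (0.927) and Slc1a3 (0.574), and the ratio of members to other nuclei for F730043M19Rik (0.730) and St18 (0.771). Kcnh8 also turned round (0.865) without the highest 9% of doublet scores. With Lhx8 nuclei kept, members were 4.59% of US+ and 6.55% of US- nuclei, with 197 genes higher and 614 lower than in other nuclei. At 2 or more Lhx6 UMIs they were 1.27% of US+ and 1.67% of US- nuclei, and with a minimum of 4000 UMIs 4.03% of US- nuclei. A filter at 20, at 200 or at no UMIs gave 168, 46 and 1547 genes higher and 605, 111 and 7421 lower in members than in other nuclei, and 829, 73 and 3582 higher and 830, 50 and 3666 lower in US+ than in US- members. Of 22 list medians, 4 lay above 1 against other nuclei, 7 under TMM scaling, the median ratio or the thinned rule, and 2 at a minimum of 1000 UMIs. The IEG ratio was 2.86 without cluster 2, an alternative chosen after seeing the data, and 3.53 to 4.81 under all remaining settings. The cause of these changes was not tested.

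A member needs as few as 1 Lhx6 and 2 Sox6 UMIs, so depth limits which nuclei enter. The IEG ratios of single clusters rest on 8 to 93 nuclei of a library and as few as 1 UMI, and their intervals cover counting error only.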

Other observations

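Adhesion and synapse organizer genes, which shape how inhibitory neurons choose their partners, stood above the typical gene in members. Of 42 measured, 1 was at least 2-fold higher in members than in other nuclei and none 2-fold lower, with a median ratio of 1.19 against 0.931 over all genes. The 1 was Elfn1, a postsynaptic organizer of excitatory input onto Sst interneurons (ratio 2.96, 2.69 to 3.26). Against the Lhx8 nuclei Elfn1 had a ratio of 1.12 (0.99 to 1.25), and against the Lhx6 nuclei without Sox6 1.56 (1.19 to 2.08). Nxph1, another neurexin ligand, had a ratio of 1.89, and the contactin gene Cntn4 of 1.94. Nlgn1, a postsynaptic partner of neurexins, had a ratio of 0.64. Among transmitter genes, the vesicular GABA transporter gene Slc32a1 had a ratio of 1.31 and the GABA transporter gene Slc6a11 of 0.48. Between the libraries, all 9 measured mitochondrially encoded genes lay above 1 in US+ members, 4 of them at least 1.5-fold, with a median of 1.42 in members and 1.19 in other nuclei.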
